A study of Mus musculus with 4 samples.

Results

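The 10 genes described here are the 3 calponins (Cnn1, Cnn2 and Cnn3), the smooth-muscle-type contractile genes Acta2, Tagln, Myl9, Myh11, Lmod1 and Smtn, and Srf, which encodes the transcription factor known for controlling them. They were chosen by gene name, with earlier results of these arrays in view, and every probe that carried such a name and was not a control was taken. This gave 14 probes for 10 of the 36391 gene names on the array, which holds 55681 probes. C2C12 is an immortalised mouse myoblast line that divides in growth medium and can be turned into multinucleate myotubes. It was transfected with an siRNA directed at Fxr1, which encodes an RNA-binding protein of the fragile X family (siFxr1), or with a control siRNA (siControl). Each condition was measured in 2 experiments, which makes 4 arrays. All 4 samples are of this 1 cell line, and no untransfected sample was used here. Each array took a single sample labelled with Cy3, and both conditions of an experiment lay on 1 slide, so that experiment and slide cannot be told apart.

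Calponins, transgelin (Tagln) and smoothelin bind actin filaments, and myosin light and heavy chains form the motor that pulls on them. In smooth muscle these genes are switched on together when serum response factor (SRF), bound to a short DNA element called the CArG box, is joined by its cofactors myocardin (Myocd) or the MRTF proteins, which enter the nucleus when free actin monomers are used up. Skeletal myoblasts also make part of this set, among them Acta2, before the sarcomeric actins and myosins replace it during differentiation.

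The stretch before the start site of 6 of the genes is shown because it is a place where a CArG box would be looked for. It is also shown because the calponins, which are close relatives in protein, differ there. The sequences are the 250 bases before the annotated start, 5′ to 3′ on the strand of the gene, from RefSeq on GRCm38.p6. They lie at chr9:22099003-22099252 on the plus strand for Cnn1, chr10:79988350-79988599 (plus) for Cnn2, chr3:121426291-121426540 (plus) for Cnn3, chr19:34255374-34255623 (minus) for Acta2, chr2:156775214-156775463 (plus) for Myl9 and chr17:46556163-46556412 (minus) for Srf. Capitals mark a CArG box or a stretch that differs from one at 1 base.
Cnn1: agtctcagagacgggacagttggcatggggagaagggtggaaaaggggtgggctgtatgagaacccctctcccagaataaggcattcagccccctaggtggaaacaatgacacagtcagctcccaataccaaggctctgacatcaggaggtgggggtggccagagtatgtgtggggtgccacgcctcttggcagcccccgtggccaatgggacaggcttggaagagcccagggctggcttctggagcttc
Cnn2: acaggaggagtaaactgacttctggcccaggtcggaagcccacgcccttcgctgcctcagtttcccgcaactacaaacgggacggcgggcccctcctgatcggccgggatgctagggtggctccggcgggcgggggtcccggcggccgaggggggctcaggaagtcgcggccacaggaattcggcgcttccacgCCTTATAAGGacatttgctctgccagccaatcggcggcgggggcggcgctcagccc
Cnn3: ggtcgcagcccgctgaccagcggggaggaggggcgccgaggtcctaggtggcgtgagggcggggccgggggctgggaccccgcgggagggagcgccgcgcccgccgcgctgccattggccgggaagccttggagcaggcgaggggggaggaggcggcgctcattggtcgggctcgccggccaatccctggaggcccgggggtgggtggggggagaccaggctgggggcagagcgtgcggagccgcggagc
Acta2: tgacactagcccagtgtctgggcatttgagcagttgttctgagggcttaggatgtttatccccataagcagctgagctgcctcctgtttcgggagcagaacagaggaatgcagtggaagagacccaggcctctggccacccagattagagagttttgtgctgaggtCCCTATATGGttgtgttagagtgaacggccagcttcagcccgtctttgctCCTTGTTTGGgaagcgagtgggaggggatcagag
Myl9: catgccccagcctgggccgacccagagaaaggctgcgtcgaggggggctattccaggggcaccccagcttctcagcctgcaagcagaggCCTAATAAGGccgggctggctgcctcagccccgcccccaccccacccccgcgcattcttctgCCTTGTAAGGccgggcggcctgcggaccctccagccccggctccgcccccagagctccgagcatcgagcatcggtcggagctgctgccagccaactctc
Srf: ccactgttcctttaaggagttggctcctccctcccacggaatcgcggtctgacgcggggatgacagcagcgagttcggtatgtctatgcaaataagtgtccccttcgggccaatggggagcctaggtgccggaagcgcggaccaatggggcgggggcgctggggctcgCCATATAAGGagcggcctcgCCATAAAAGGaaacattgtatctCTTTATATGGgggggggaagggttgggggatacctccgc

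Of the 10 genes, 8 had an entry in the promoter table. Cnn2 held 1 CArG box, with the letters CCTTATAAGG, from base -56 to base -47 counted from its start, and neither Cnn1 nor Cnn3 held a CArG box or a stretch 1 base away from one. Srf held 2 CArG boxes, from base -82 and from base -62, and 1 stretch that differed at 1 base. Myl9 held 1 of each kind and Acta2 held 2 stretches that differ at 1 base. Lmod1 also held 2 such stretches, and Smtn none. The window of Cnn3 was the richest in G and C among those of the 8 genes, with 78.8%, against 68.4% for Cnn2 and 59.2% for Cnn1.

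A CArG box (CC, then any 6 of A or T, then GG, which reads as a CArG box on both strands) was in 1.47% of the 32851 windows of the same length in the table, and a stretch 1 base away in 17.5%. Windows were also searched on both strands for MCAT, spelt CATTCC, which was in 12.6% of all windows, and for the E-box, CANNTG, the element of the myogenic factors, in 66.2%. TATAAA on the strand of the gene was in 7.59% of all windows and in none of the 8. MCAT was found in Acta2, Lmod1 and Smtn, and an E-box in Cnn1, Cnn2, Acta2 and Lmod1, where the E-box and the CArG-type stretches did not overlap. These matches are descriptions of letters, and nothing was measured here on the binding of SRF. Bases farther upstream or within the genes were not searched, so a window without a CArG box does not mean a gene without one.

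**Figure D1:**
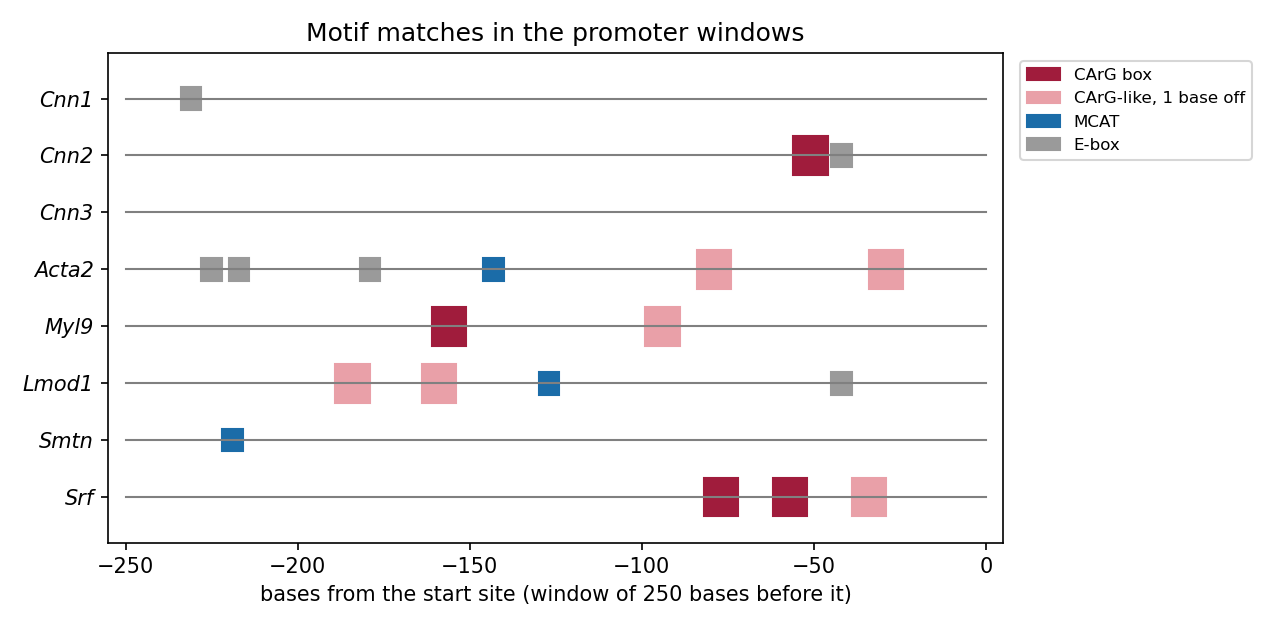
Motif matches in the 250 bases before the start site of the 8 genes with a RefSeq window, with the position in bases on the x axis and 1 gene per line. Cnn2, Myl9 and Srf hold a CArG box, Cnn1 holds only an E-box, and the line of Cnn3 is empty.

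A value below is the log2 of a spot's background-corrected intensity after the 4 arrays were brought to the same distribution, and 1 unit is a 2-fold difference. Levels of different probes are not compared, because each probe has its own brightness. Where a gene has 2 probes, the brighter over the 4 arrays stands for it and the other is given beside it. Positions of probes are the array's own, on mm9. The share of probes marked well above background by the scanner software was 45.4% to 45.9% in experiment 1 and 49.7% to 52.9% in experiment 2, and 0 spots were saturated. The siControl samples and siFxr1 of experiment 2 had an RNA integrity number of 9, and the remaining sample, siFxr1 of experiment 1, had 8. Both probes of Fxr1 were lower in siFxr1 in both experiments, by 3.69 and 2.93 at the brighter (mean difference -3.31, SE 0.29) and by 3.84 and 3.38 at the other.

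On every array 8 of the 10 genes were well above background, at 12 of the 14 probes. The smooth muscle myosin heavy chain Myh11 and the actin nucleator Lmod1 were not well above background on any array. Since the genes were chosen with the comparison of siFxr1 and siControl known, their differences between these conditions are given as a description. They come with the standard error (SE) of limma's fit but no p. This fit does not pair the arrays by experiment, so its SE takes in the difference between experiments. With the experiment as a block the SE was 0.32 for Cnn1 and 0.19 for Acta2. Cnn1 was the member with the largest difference, and Cnn3 and Smtn were lower in siFxr1 at both of their probes. Acta2 showed almost no difference within either experiment.

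Cnn1 encodes basic calponin, which binds actin and holds back the ATPase of myosin, and is otherwise known as a marker of differentiated smooth muscle. Its probe (A_51_P350817, NM_009922, chr9:21913058-21913117) gave 12.18 (siFxr1) and 10.25 (siControl) in experiment 1, and 10.38 (siFxr1) and 7.57 (siControl) in experiment 2. Both siFxr1 arrays were above both siControl arrays, although siFxr1 of experiment 2 exceeded siControl of experiment 1 only narrowly. The means were 11.28 ± 1.27 in siFxr1 and 8.91 ± 1.90 in siControl (SD, n = 2 each), a log2 difference of 2.37 (SE 1.27). Within experiments, where the shared difference between them drops out, Cnn1 was 3.79-fold higher in siFxr1 in experiment 1 and 7.05-fold higher in experiment 2. With 1 array left out the 2 experiments no longer weigh equally, and the difference was 1.03 without siControl of experiment 2, 1.47 without siFxr1 of experiment 1 and 3.71 without siControl of experiment 1. Such values, for Cnn1 and for the genes below, take in part of the difference between the experiments.

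Cnn2, the calponin of many non-muscle cells, was measured by 2 probes. The brighter (A_51_P427663, NM_007725, chr10:79457785-79457844) gave 14.30 and 13.65 in siFxr1 and 14.47 and 14.22 in siControl, in experiments 1 and 2. The conditions overlapped, since siFxr1 of experiment 1 lay between the siControl arrays, and the difference was -0.36 (SE 0.31). The second probe (A_55_P2010931, chr10:79457370-79457429) had a difference of 0.20 in experiment 1 and -0.55 in experiment 2, so the probes disagree in direction in experiment 1.

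Cnn3 encodes acidic calponin, which is made in many cells besides muscle. Its brighter probe (A_55_P2130090, NM_028044, chr3:121160748-121160807) gave 15.35 and 14.54 in siFxr1 and 15.89 and 15.65 in siControl, in experiments 1 and 2. Both siFxr1 arrays were below both siControl arrays. The difference was -0.83 (SE 0.36), with 1.46-fold lower signal in siFxr1 in experiment 1 and 2.16-fold lower in experiment 2. At the second probe (A_55_P2040863, chr3:121161024-121161083) the arrays did not overlap either, with 14.88 and 14.21 in siFxr1 and 15.56 and 15.46 in siControl and a difference of -0.97 (SE 0.30). Within the calponins, siFxr1 was thus higher at Cnn1 and lower at Cnn3 in the same 4 samples.

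Acta2 encodes smooth muscle alpha-actin. Its probe (A_52_P420504, NM_007392, chr19:34316060-34316119) is printed in 10 spots on each array, which had an SD between 0.04 and 0.08 within an array. The mean signal was 17.89 and 16.72 in siFxr1 and 17.88 and 16.69 in siControl, in experiments 1 and 2. The arrays of an experiment were alike, and those of experiment 1 were higher in both conditions. The difference between conditions was 0.02 in experiment 1 and 0.03 in experiment 2, with a mean of 0.03 (SE 0.67). Without siFxr1 of experiment 1 it was -0.56, without siControl of experiment 2 it was -0.57, and without either of the other arrays it was 0.61 or 0.62.

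Tagln encodes transgelin, or SM22 alpha, an actin-binding protein of the calponin family that appears early in smooth muscle. Its probe (A_51_P450527, NM_011526, chr9:45738097-45738156) gave 14.65 (siFxr1) and 13.78 (siControl) in experiment 1, and 12.65 (siFxr1) and 12.59 (siControl) in experiment 2. The siFxr1 array was above the siControl array in each experiment, but the conditions overlapped because both arrays of experiment 2 were low. The difference was 0.46 (SE 0.92), made up of 0.87 in experiment 1 and 0.06 in experiment 2. It was -0.54 without siFxr1 of experiment 1 and -0.13 without siControl of experiment 2.

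Myl9 encodes the regulatory light chain through which phosphorylation switches on smooth muscle myosin. Its probe (A_51_P308298, NM_172118, chr2:156607301-156607360) gave 17.10 and 16.44 in siFxr1 and 17.03 and 15.51 in siControl, in experiments 1 and 2. The low value of siControl in experiment 2 stood apart from the other 3 arrays. The difference was 0.50 (SE 0.67), with 0.07 in experiment 1 and 0.93 in experiment 2, and -0.26 without siControl of experiment 2.

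Smtn encodes smoothelin, which is found on the actin filaments of contractile smooth muscle. The brighter probe (A_55_P2065824, NM_001159284, chr11:3417530-3417589) gave 12.57 and 12.97 in siFxr1 and 13.14 and 14.02 in siControl, in experiments 1 and 2. Both siFxr1 arrays were below both siControl arrays, as for Cnn3, but here experiment 2 had the higher signal in both conditions. The difference was -0.81 (SE 0.40), and Smtn was 1.48-fold lower in siFxr1 in experiment 1 and 2.07-fold lower in experiment 2. The second probe (A_51_P479786, NM_013870, chr11:3420834-3420893), designed on another transcript variant, gave 10.57 and 10.52 in siFxr1 and 10.86 and 12.12 in siControl. Its difference of -0.95 (SE 0.51) was mostly that of experiment 2, with -1.60 against -0.30 in experiment 1.

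The probe of Myh11 (A_55_P1988531, NM_001161775, chr16:14202190-14202249) lay between 2.61 and 2.87 on the 4 arrays. That of Lmod1 (A_66_P123617, NM_053106, chr1:137264581-137264640) lay between 2.67 and 3.09. Neither was well above background, so no fold difference is given for these 2 genes, both of which are defining markers of smooth muscle.

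Srf itself was measured by 2 probes. The brighter (A_55_P2149540, NM_020493, chr17:46685306-46685365) gave 12.96 and 11.64 in siFxr1 and 12.46 and 11.40 in siControl, in experiments 1 and 2. The arrays again fell by experiment, and the conditions overlapped. The difference was 0.37 (SE 0.68), with 0.50 in experiment 1 and 0.23 in experiment 2, and it was -0.30 without siFxr1 of experiment 1 and -0.16 without siControl of experiment 2. The second probe (A_51_P100289, annotated from 46683788 to 46683795 of the same chromosome) had a difference of 0.02 (SE 0.34), with 0.11 in experiment 1 and -0.07 in experiment 2, so the probes disagree in experiment 2.

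**Figure D2:**
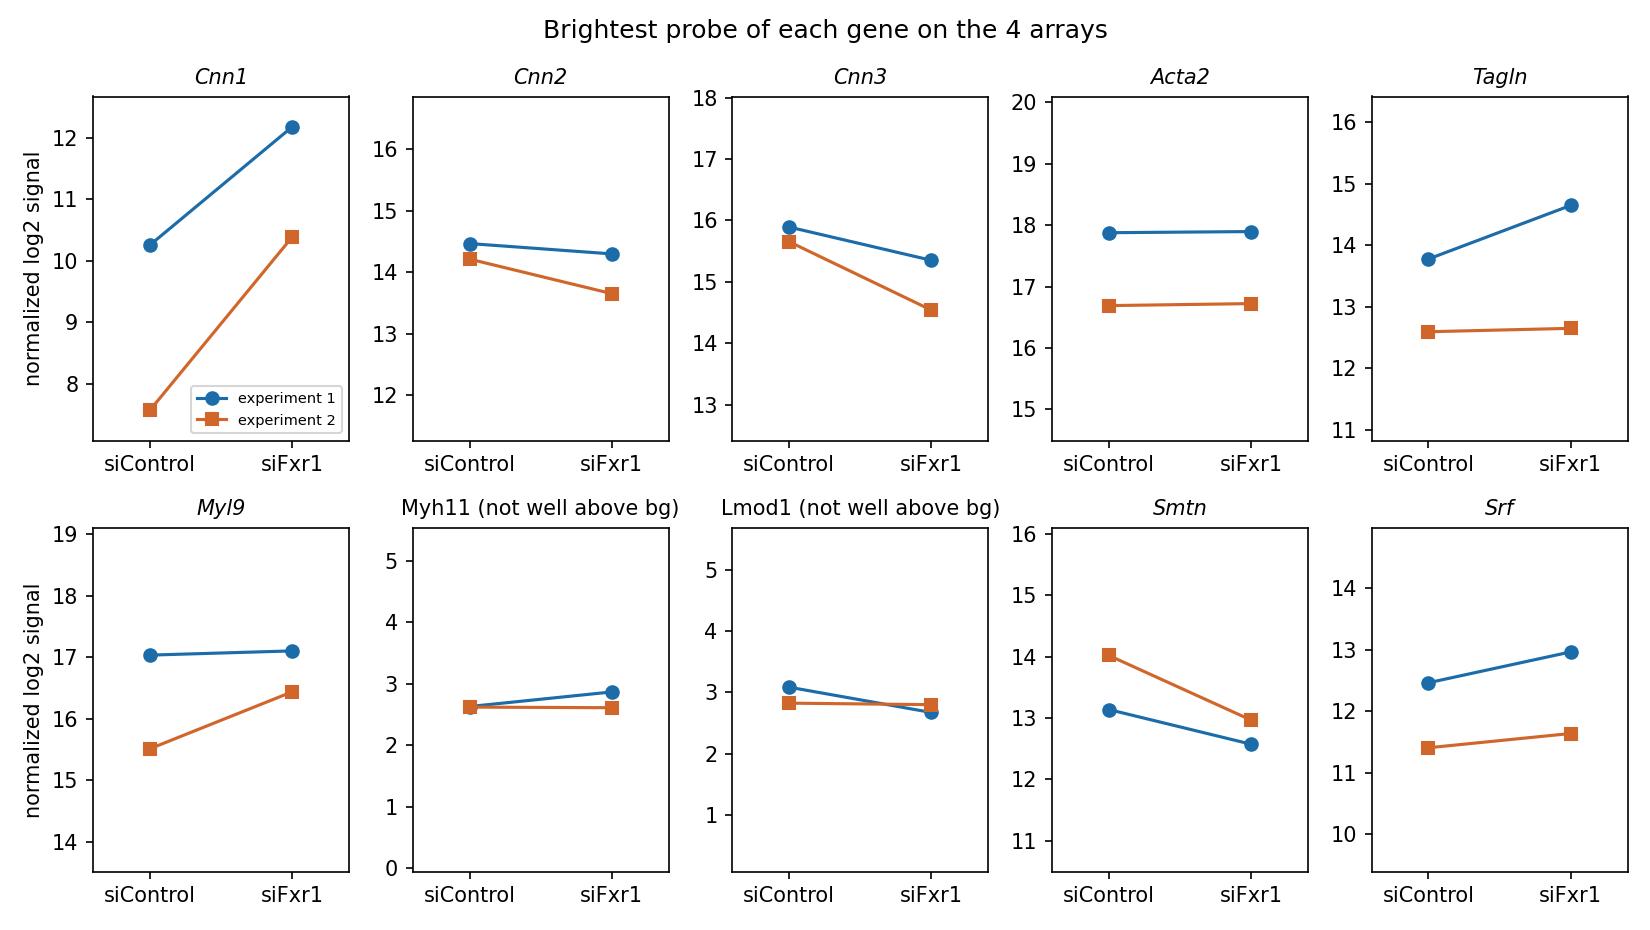
Normalized log2 signal of the brightest probe of each gene in siControl and siFxr1, with a line joining the 2 arrays of an experiment; the y axes differ in position and have the same span of log2 units. The 2 lines of Cnn1 run upward and those of Cnn3 and Smtn downward, the lines of Acta2 are level with experiment 1 above experiment 2, and Myh11 and Lmod1 were not well above background.

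Counts over the genes are set beside the same counts over the 19132 genes of the array whose brightest probe passed the background mark on both arrays of 1 or both conditions. Because the choice of members used this comparison, nothing is read from the counts. By limma's B above 0, the study's criterion, 0 of the 10 genes were called, and 0% of all genes. The highest B of any probe was -4.33, so this fit called no gene, Fxr1 included. The paper took mean ratios of all comparisons and reports transcripts with a B above 0, which this fit did not reproduce. At an unadjusted p under 0.05 limma counted 0 of the 10, with 6.9% of all genes, and 3 of the 10 with the experiment as a block, with 12.2% of all genes. With the 4 ratios of siFxr1 over siControl arrays taken as observations, which share arrays and so understate the error, 0 of the 10 had a B above 0, with 2.65% of all genes. By size alone, Cnn1 was the 1 member at least 2-fold higher in siFxr1 in both experiments, with 2.11% of all genes, and 0 members were at least 2-fold lower, with 1.48%. Of the 8 genes above background, 5 were higher and 3 lower in siFxr1 in both experiments, and 63.9% of all genes had the same direction in both. The 5 include Acta2, at only 0.02 and 0.03, and the second probes of Cnn2 and Srf changed direction between the experiments. The arrays of the conditions did not overlap for 1 gene that was higher (Cnn1), with 16.5% of all genes, and for 2 that were lower (Cnn3 and Smtn), with 14.2%. The median difference of the 8 genes was 0.20, against 0.03 over all genes.

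**Figure D3:**
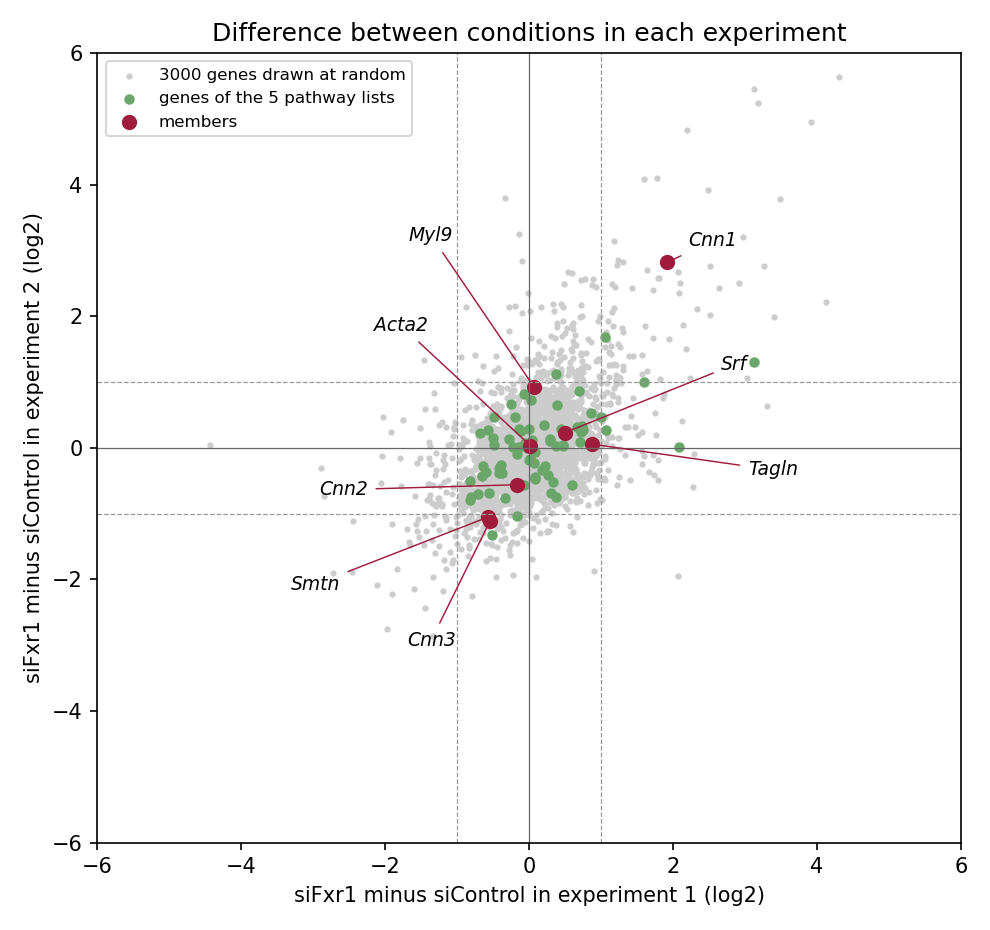
Log2 difference of siFxr1 minus siControl in experiment 1 (x axis) and experiment 2 (y axis), with dashed lines at a 2-fold difference. Shown are the 8 members above background, the genes of the 5 pathway lists and 3000 genes drawn at random, which include list genes. Cnn1 lies beyond both dashed lines at 1.92 and 2.82, Cnn3 and Smtn lie lower left at around a 2-fold difference in experiment 2, and the other 5 lie nearer to 0.

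The comparison of experiment 1 with experiment 2 was not used to choose the genes, so its p is given. It was fitted with the condition as a covariate, so its SE leaves out the difference between conditions. Each experiment is 1 slide, and the fit takes the siFxr1 and siControl arrays of a slide as its replicates. Its SE and p thus measure how alike the difference was in both conditions, and not the spread among repeated experiments. The SE given above between conditions takes in the difference between experiments, so the SEs of these comparisons are not alike. Of the 8 genes above background, 7 were higher in experiment 1 in both conditions, all but Smtn. The same count was not made over all genes, so nothing is read from it. Among the members, Cnn1 had the largest difference between experiments, at 2.24 (SE 0.32, limma adjusted p = 0.119), with 2.69 in siControl and 1.79 in siFxr1. Tagln was higher by 1.59 (SE 0.30, limma adjusted p = 0.145), with 1.18 in siControl and 2.00 in siFxr1. Acta2 was higher by 1.18 (SE 0.19, limma adjusted p = 0.129), nearly the same in siControl (1.19) and siFxr1 (1.17). These 3 genes therefore differed at least 2-fold between the arrays of the same siRNA in experiments 1 and 2. Whether this lies in the cultures or the slides cannot be told apart.

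Srf was also higher in experiment 1, by 1.19 (SE 0.21, limma adjusted p = 0.135), where its second probe differed by only 0.55 (SE 0.20), with 0.63 in siFxr1 and 0.46 in siControl. Myl9 was higher in experiment 1 by 1.10 (SE 0.31, limma adjusted p = 0.216), with 1.52 in siControl and 0.67 in siFxr1. Cnn2 and Cnn3 differed less, by 0.45 and 0.52 (SE 0.22 and 0.25), and in siControl by only 0.25 and 0.24. Smtn was lower in experiment 1, by 0.64 on the log2 scale (difference -0.64, SE 0.24, limma adjusted p = 0.295), with -0.88 in siControl and -0.39 in siFxr1. No adjusted p of limma was under 0.05, for 0 of the 10 members and 0% of all genes, and 5 of the 10 had an unadjusted p under 0.05, with 26.4% of all genes. With 1 array left out, the plain difference between the means of the experiments also takes in the difference between the conditions. That of Cnn1 was then 0.83 without siControl of experiment 2, 1.28 without siFxr1 of experiment 1 and 3.65 without siFxr1 of experiment 2. That of Cnn3 was -0.03 without siFxr1 of experiment 2 and 1.08 without siControl of experiment 2, and that of Cnn2 was 0.17 and 0.73 without the same arrays. Smtn ran from -1.16 to -0.11 and Myl9 from 0.63 to 1.56 over the 4 arrays left out, and Acta2 only from 1.16 to 1.20.

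At least 2-fold in both conditions, 4 members (Cnn1, Acta2, Tagln and Srf) were higher in experiment 1, with 5% of all genes, and 0 were lower, with 5.03%. Srf passed this size at its brighter probe and in neither condition at its second probe. The median difference of the 8 genes was 1.14, against 0.07 over all genes. The calls of this comparison depended on the processing, and not on the scaling alone. With only probes well above background, the difference of Cnn1 was the same 2.24 and its limma adjusted p was 0.00872. In that setting 4 of the 10 members had a limma adjusted p under 0.05, with 15.7% of all genes. When each array was scaled to its 75th percentile in place of quantile normalization, which moved the median of all genes to 0.19, 5 of the 10 members had a limma adjusted p under 0.05, with 8.95% of all genes. These were Cnn1 (adjusted p = 6.4e-05), Tagln (0.000692), Acta2 (0.00442), Myl9 (0.007) and Srf (0.0265), and all 5 were higher in experiment 1, by 1.48 to 2.32 on the log2 scale. Except for Cnn1 (2.24 to 2.32), this scaling moved the members above background more than that median. Acta2 went from 1.18 to 1.77, Myl9 from 1.10 to 1.70, Cnn3 from 0.52 to 1.07 and Smtn from -0.64 to -0.24. Before normalization the median intensity was 21.98 (siFxr1) and 24.98 (siControl) in experiment 1, and 44.98 and 40.81 in experiment 2.

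**Figure D4:**
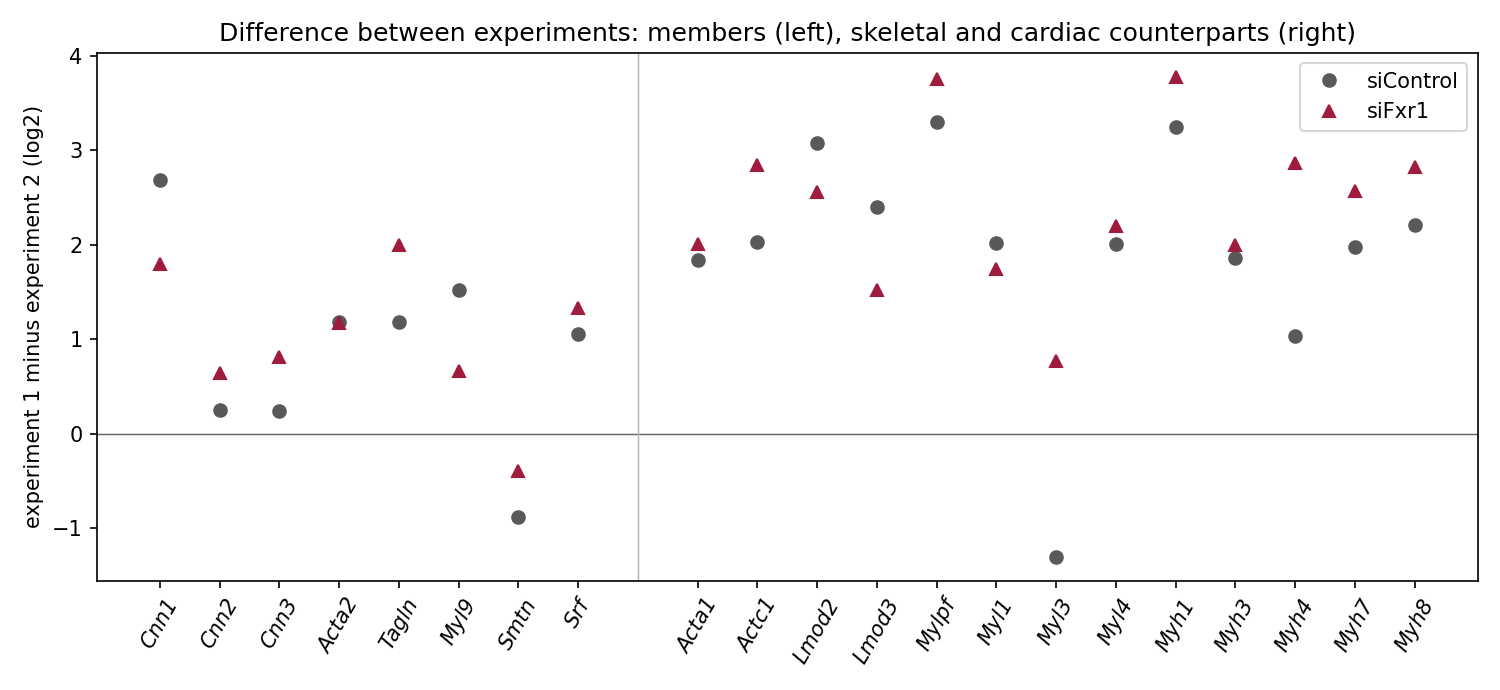
Log2 difference of experiment 1 minus experiment 2 in siControl (circles) and in siFxr1 (triangles) for the 8 members above background, left, and for the 13 skeletal and cardiac counterparts above background, right. All members but Smtn lie above 0 in both conditions, and among the counterparts 12 lie above 1 in both conditions while Myl3 does not.

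Markers of other cell states were read on the same arrays. All 7 myotube markers, among them Myog, were well above background on all 4 arrays, and the log2 of their summed signal was 17.51 (siControl) and 17.34 (siFxr1) in experiment 1, against 15.51 and 15.20 in experiment 2. Of 15 skeletal and cardiac counterparts of the contractile genes, 13 were above background and 12 were at least 2-fold higher in experiment 1 in both conditions, with a median difference of 2.10. The part of myotube formation in the differences of Cnn1, Tagln, Acta2, Myl9 and Srf between experiments was not tested. Of 7 myoblast markers, 6 were well above background on all 4 arrays and Myf5 on none. Of 7 smooth muscle markers, 3 were above background on all 4 arrays (Smtn, Actg2 and Des), and Myocd, Myh11, Kcnmb1 and Lmod1 on none. The log2 of the summed smooth muscle signal was 16.32 and 15.75 in siFxr1 and 15.63 and 15.37 in siControl, in experiments 1 and 2, and Actg2, higher in siFxr1, carried most of that order, since Smtn was lower in siFxr1. The log2 of the summed signal of 6 fibroblast markers was between 16.53 and 17.05. Col1a1 and Col1a2 make up most of that sum and were lower in siFxr1 in both experiments. Pdgfra, well above background on all 4 arrays, was also lower in siFxr1 in both (-0.33 and -0.32). The matrix genes Dcn and Postn were higher in siFxr1 in both, as Cnn1 was, and Thy1 was not well above background on any array. Dcn gave 13.19 and 14.69 in siFxr1 and 12.59 and 12.75 in siControl, in experiments 1 and 2. Postn was higher by 0.65 in siFxr1 of experiment 1, and gave 7.39 (siFxr1) and 3.78 (siControl) in experiment 2. It was well above background on both siFxr1 arrays and on 1 of the siControl arrays. The part of fibroblast-like cells in the difference of Cnn1 was not tested. The immune markers moved the other way between the experiments, at 12.03 (siFxr1) and 11.35 (siControl) in experiment 1 against 13.62 and 13.82 in experiment 2. Of these 3 markers, Itgam was well above background on all 4 arrays and Ptprc, the pan-leukocyte marker CD45, on none. The log2 of the summed endothelial signal was 6.82 (siFxr1) and 6.79 (siControl) in experiment 1 against 7.71 and 7.17 in experiment 2, but Cdh5, the 1 of 3 endothelial markers well above background on all 4 arrays, was higher in experiment 1 in siControl, by 0.35, and lower in siFxr1 (-0.73). All 4 samples are of 1 cell line, and where the signal of these immune and endothelial markers comes from was not tested. On an array of RNA from whole cultures, fewer cells of a type and less RNA per cell cannot be told apart.

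Myocd lay between 2.71 and 2.79 and was not well above background on any array. Mkl1, which encodes MRTF-A, gave 13.80 and 14.38 in siFxr1 and 13.91 and 14.12 in siControl, in experiments 1 and 2, a difference of 0.07 (SE 0.28). Mkl2, which encodes MRTF-B, gave 12.21 and 12.77 in siFxr1 and 12.46 and 12.11 in siControl, a difference of 0.21 (SE 0.30) with opposite directions in the 2 experiments. The conditions overlapped for both.

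The other genes of the pathway were taken from lists that were also drawn up with earlier results known. In each list described, 0 genes had a B above 0 with or without the experiment as a block, as was so for every probe on the array. The unadjusted p of limma was under 0.05 for 1 gene among the other SRF or MRTF targets, for 1 among the other smooth muscle genes, and for 0 of the cofactors and of the skeletal and cardiac counterparts, where 6.9% of all genes had such a p. Beside the counts by direction and size that follow stand 63.9% of all genes with the same direction in both experiments, and 2.11% higher and 1.48% lower by at least 2-fold in both, so that nothing particular to a list is read from them.

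Of 27 other SRF or MRTF targets of the cytoskeleton, all above background, 13 were higher and 6 lower in siFxr1 in both experiments, and 0 reached 2-fold in both. The median was 0.14. The largest differences were those of Pdlim5, a PDZ and LIM protein of the actin cytoskeleton, at 0.78 (SE 0.19), and of Dstn, which encodes the actin-depolymerising protein destrin, at 0.75 (SE 0.39). Between the experiments, and in both conditions, 2 of the 27 were higher by 2-fold or more in experiment 1, and 3 were lower to that degree.

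Of 23 other smooth muscle contractile genes, 14 were above background, 2 were higher and 7 lower in siFxr1 in both experiments, and the median was -0.11. Actg2, the enteric smooth muscle actin, was the 1 gene of this list at least 2-fold higher in both experiments. It gave 15.69 (siFxr1) and 14.63 (siControl) in experiment 1, and 14.87 (siFxr1) and 13.18 (siControl) in experiment 2. Both siFxr1 arrays were above both siControl arrays, as for Cnn1. The difference was 1.37 (SE 0.67), or 2.08-fold in experiment 1 and 3.22-fold in experiment 2. The 2 smooth muscle actins thus had different values on the same arrays, 1.37 for Actg2 against 0.03 for Acta2, a contrast that was not tested.

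Among the 13 skeletal and cardiac counterparts above background, 7 were higher and 3 lower in siFxr1 in both experiments, with a median of 0.20. The fast myosin heavy chain Myh4 and the slow one Myh7 were at least 2-fold higher in both. Myh4 gave 11.62 and 8.76 in siFxr1 and 8.49 and 7.46 in siControl, in experiments 1 and 2, a difference of 2.21 (SE 1.20). Myh7 gave 11.13 and 8.56 in siFxr1 and 9.53 and 7.56 in siControl, a difference of 1.30 (SE 1.28). The conditions did not overlap for Myh4 and did for Myh7, and the highest array of both was siFxr1 of experiment 1.

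The genes whose signal ran most like that of Cnn1 were found by the root mean square distance between values centred on each gene's mean, over the 4 arrays, among 17804 genes well above background on all of them. The 5 nearest were 1600027J07Rik at a distance of 0.09, Ctrb1 (chymotrypsinogen B) at 0.13, Gbp11 (a guanylate-binding protein) at 0.18, Tceal7 at 0.24 and Apod (apolipoprotein D) at 0.30. Each of them was between 3.29-fold and 4.68-fold higher in siFxr1 in experiment 1 and between 4.12-fold and 9.37-fold higher in experiment 2. Each was also higher in experiment 1 than in experiment 2, by 2.04 to 2.60. This likeness to Cnn1 follows from how they were picked, on the same 4 arrays. None of the 5 belongs to the contractile genes. Among the members, Tagln (1.09) and Myl9 (1.10) were the nearest to Cnn1, with 523 and 532 genes nearer. Srf had a distance of 1.17 and Acta2 of 1.31, and Cnn2 (1.67), Cnn3 (1.85) and Smtn (2.17) were farther away.

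**Figure D5:**
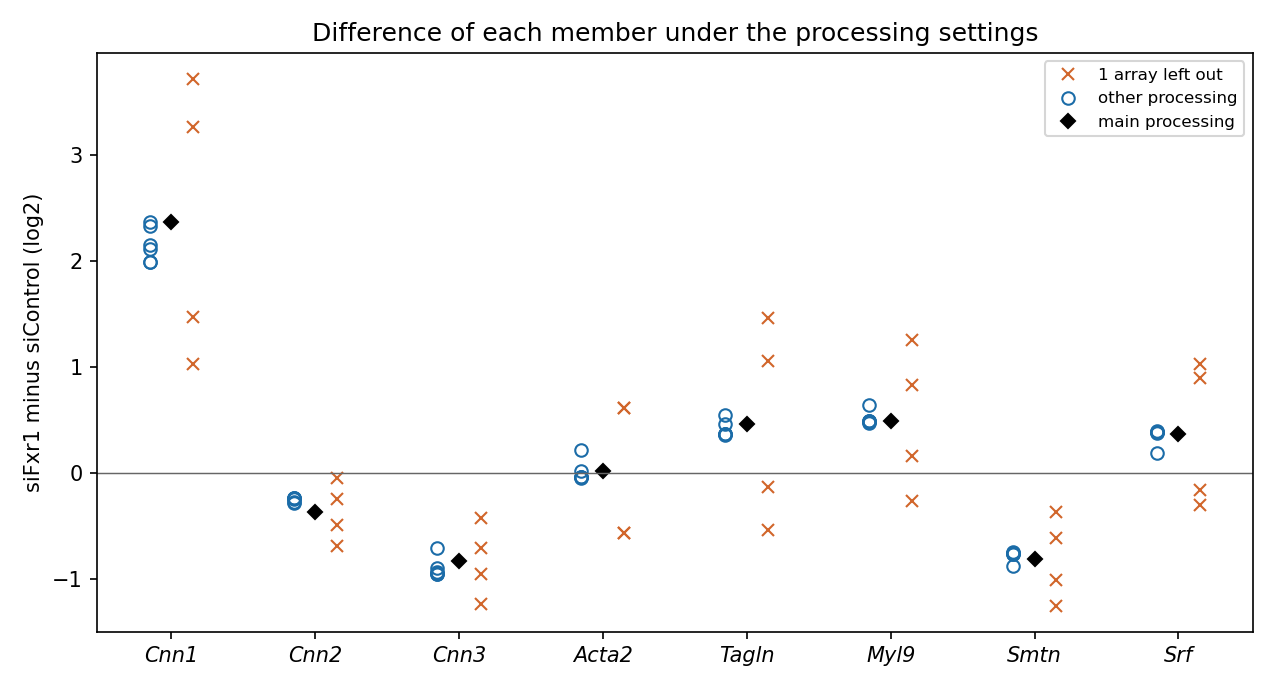
Log2 difference of siFxr1 minus siControl for the 8 members above background, as reported (diamonds), under other processing (circles) and with 1 array left out (crosses). Cnn1 stays above 1 and Cnn2, Cnn3 and Smtn stay below 0 throughout, while Acta2, Tagln, Myl9 and Srf pass 0 when 1 array is left out. The crosses take in part of the difference between experiments. Within each experiment, Acta2, Tagln, Myl9 and Srf were above 0 at their brightest probe.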

How the data were processed

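RNA of C2C12 myoblasts was measured on 4 one-colour Agilent arrays, 2 per condition, grouped by their labels. The authors deposited the intensity of every spot from Agilent Feature Extraction 10.7.3.1, background-corrected within an array and not normalized between arrays, and a table of normalized intensities, used as an alternative. From the deposited corrected intensity, log2 values were computed and quantile-normalized over 59305 spots that were not controls. Between 145 and 177 outlier spots per array were then set to missing, and spots of a probe were averaged. limma 3.58.1 in R 4.3.3 was fitted to all 55681 probes with the condition as its only term, called at B above 0 as in the study's methods. The experiments were compared with the condition as covariate, and called at a p under 0.05 after Benjamini-Hochberg adjustment. The software's mark was required on 0.5 or more of a probe's spots to count it as well above background. The fits were run on simulated data whose noise was independent between arrays, unlike that of these arrays. That check says nothing of how many differences the fits can find here.

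The members and lists were chosen with earlier results of these data known, and the results of 1 of the 5 lists are not reported here. Named are all members, both probes of Fxr1, the SRF cofactors, list genes at least 2-fold different in both experiments or otherwise the 2 with the largest mean difference, and the 5 genes nearest to Cnn1. Gene names and probe positions are those of the array's annotation. Whether a probe lies in an exon or UTR was not looked up, since no annotation of mm9 was used here.

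Replicate numbers pair the samples, since per the labels each number is 1 experiment on 1 slide. Deviations of same-numbered arrays from their condition means correlated at 0.714, and the median residual SD fell from 0.384 to 0.183 when the experiment entered as a block. The study's methods call the replicates biological, and their number limits the precision. Alternatives were scaling to the 75th percentile, normexp with an offset of 50, no background correction, median minus background, the authors' table, the mean over a gene's probes, only probes well above background, the block, the 4 ratios, and each array left out.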

Additional observations from a re-analysis of the deposited data

How the results depend on the processing

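The count of members with a B above 0 was 0 under every setting run, including the replicate block. No probe on the array had a B above 0 as reported (highest -4.33) or with the block (highest -2.29). The count therefore shows nothing about the members in those fits. Cnn1 was the 1 member at least 2-fold higher in both experiments under each of the 6 other processings, and 0 members were at least 2-fold lower. Over those processings its difference lay between 1.99 and 2.37, that of Cnn3 between -0.95 and -0.70, that of Smtn between -0.88 and -0.75 and that of Acta2 between -0.04 and 0.22. The replicate block changed no call by B, since no gene was called with or without it. With each array left out in turn, Cnn1 lay between 1.03 and 3.71, Cnn3 between -1.23 and -0.42, Smtn between -1.25 and -0.37 and Cnn2 between -0.69 and -0.04, and the counts of members and of list genes with a B above 0 were 0 to 0. Leaving out an array leaves 1 experiment with a single condition, so the count of 2-fold differences in both experiments and the test between experiments could not be fitted.

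The list genes at least 2-fold higher in both experiments numbered 3 as reported, 2 with 75th percentile scaling, normexp or median minus background, and 1 with no background correction or in the authors' table, where only Actg2 was left. Between the experiments, 0 members passed the adjusted p as reported, 5 with 75th percentile scaling, no background correction or the authors' table, and 4 with normexp, median minus background or only probes well above background, where Myl9 had an adjusted p between 0.0527 and 0.0681. The share of all genes called was then between 8.95% and 18.9%. The cause was not tested. Between the conditions, Myh11 and Lmod1, neither well above background, were the 2 members whose difference moved by more than the replicate SD with the processing.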
